A study of Mus musculus with 20 samples.

Results

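Untreated renal myofibroblasts lacking WWP2 were compared with untreated WT myofibroblasts by bulk RNA sequencing. The comparison used the 5 libraries whose labels give the genotype as KO and the treatment as control, called WWP2-/- here, and the 5 control libraries of genotype WT, which are 10 of the 20 libraries in all. The other 10 libraries, 5 of each genotype, were treated with TGFβ1 and entered only to estimate the spread and to test whether the difference between genotypes changed with treatment. The labels do not say whether treated and untreated libraries share cultures, and the fit took all 20 libraries as independent. All mice were of the C57BL/6J strain, and per the study's methods WT and WWP2-/- mice were littermates, cells grew out of minced kidney pieces and were used at passage 2, and WWP2-/- cells lack the full-length and N-terminal protein isoforms. The labels give neither the age nor the sex of the mice, and they do not say whether the 5 libraries of a group came from separate mice, so *P* values measure the spread between these libraries, which may in part be technical. Of 51826 genes in the count table, 20407 were tested, a gene needing 5 or more counts in 5 or more of the 20 libraries.

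WWP2 is a HECT-type E3 ubiquitin ligase of the NEDD4 family. Its WW domains bind proline-rich motifs of substrate proteins, and its catalytic domain transfers ubiquitin to them, which can mark them for degradation or change their activity. Renal myofibroblasts are contractile stromal cells that deposit collagens and other extracellular matrix (ECM) proteins during scarring of the kidney, and TGFβ1 is the cytokine best known for driving this state. The untreated cells address what the loss of WWP2 does to the transcriptome before any added TGFβ1.

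*Wwp2* (ENSMUSG00000031930) lies on the plus strand of chromosome 8 of GRCm38, from 107436365 to 107558595. Its level was 18.5, 21.3, 22.7, 20.6, and 19.5 CPM (read counts scaled to the size of the library) in WWP2-/- replicates 1 to 5 and 50.2, 54.3, 59.8, 51.1, and 50 CPM in WT replicates 1 to 5. The groups did not overlap, and the mean of the WWP2-/- libraries was 38.6% of the WT mean. The log2 fold change was −1.37 (standard error 0.0841, adjusted *P* = 4.32e-08, edgeR's quasi-likelihood test with Benjamini–Hochberg adjustment), and the exact two-sided permutation test of CPM gave *P* = 0.00794 (*n*=5 each), the smallest that 5 against 5 allows. The table sums reads over all exons of a gene, so it does not show which exons the remaining reads came from. *Wwp2* was called without each of the 10 untreated libraries in turn, with log2 fold changes between −1.43 and −1.34. It was the 1 gene with an adjusted *P* below 0.01. Among the 9 tested members of the NEDD4 family of ligases it was also the 1 gene called, as it was among the 159 genes tested within 5 Mb of it.

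Several libraries stood apart, and this touches most of the results that follow. Totals were between 48658418 and 73063697 counts in the 10 untreated libraries, so a count of 0 allows at most 0.0617 CPM, a limit that covers counting error only. *Xist*, the RNA that coats the inactive X chromosome of female cells, was above 1 CPM in WT replicates 1, 2, 3, and 5 (108 to 220 CPM) and in WWP2-/- replicates 1 and 3 (33.7 and 291 CPM), and at most 0.0776 CPM in the other 4 libraries. The summed level of 4 Y-linked genes was above 1 CPM in 8 libraries, including WT replicates 1, 2, and 5 and WWP2-/- replicate 1, so these 4 libraries held both *Xist* and Y-linked RNA. WT replicate 4, the WT library without *Xist*, carried *Wwp2* at the WT level, yet over the 9714 genes of at least 10 CPM it was nearer to WWP2-/- replicate 2 (SD of the log2 ratio 0.273) than to any WT library (0.793 or more). WT replicates 1, 2, and 5 differed from each other by SDs of only 0.19 to 0.298, against 0.488 to 1.14 for the other WT pairs. WWP2-/- replicates 4 and 5 differed by 0.21. Even the closest pair differed by 36.9 times the variance of counting noise, so none was treated as a repeated deposit of 1 library. That variance cannot tell separate cultures from separate libraries of 1 culture. Each library was counted as 1 replicate in every test, so the number of independent cultures may be smaller. WWP2-/- replicate 3 was the farthest from the others, with SDs of 1.09 to 1.41.

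Cell type markers moved with these libraries. The 20 tested of 24 macrophage and leukocyte markers summed to between 174 and 1290 CPM in the other WT libraries and to 4390 CPM in WT replicate 4, and to between 101 and 2020 CPM in WWP2-/- libraries, highest in replicate 2. The 21 tested of 26 tubular and other epithelial markers summed to 1460 CPM in WT replicate 4, against 80.7 to 909 CPM in the other WT libraries, and to between 88.7 and 1940 CPM in WWP2-/- libraries. The 12 fibroblast markers were all measured and summed to between 15200 and 21800 CPM in WT replicates 1, 2, 3, and 5. The sum was 4660 CPM in WT replicate 4 and between 4650 and 10400 CPM in WWP2-/- libraries. In WT replicate 4, *Vim* was at 2570 CPM and *Col1a1* at 854 CPM, but *Fap* at 0.295 CPM. The sum therefore does not show that every fibroblast gene was abundant in every library. RNA of immune and epithelial markers was present in each library. In bulk RNA, fewer cells of a type and less RNA per cell cannot be told apart. Of the marker genes listed, the T cell marker *Cd3e*, the B cell marker *Ms4a1*, and the tubular markers *Slc34a1*, *Umod*, and *Aqp2* did not reach the level needed for a test. The part of these cells in the differences between genotypes was not tested.

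**Figure D1:**
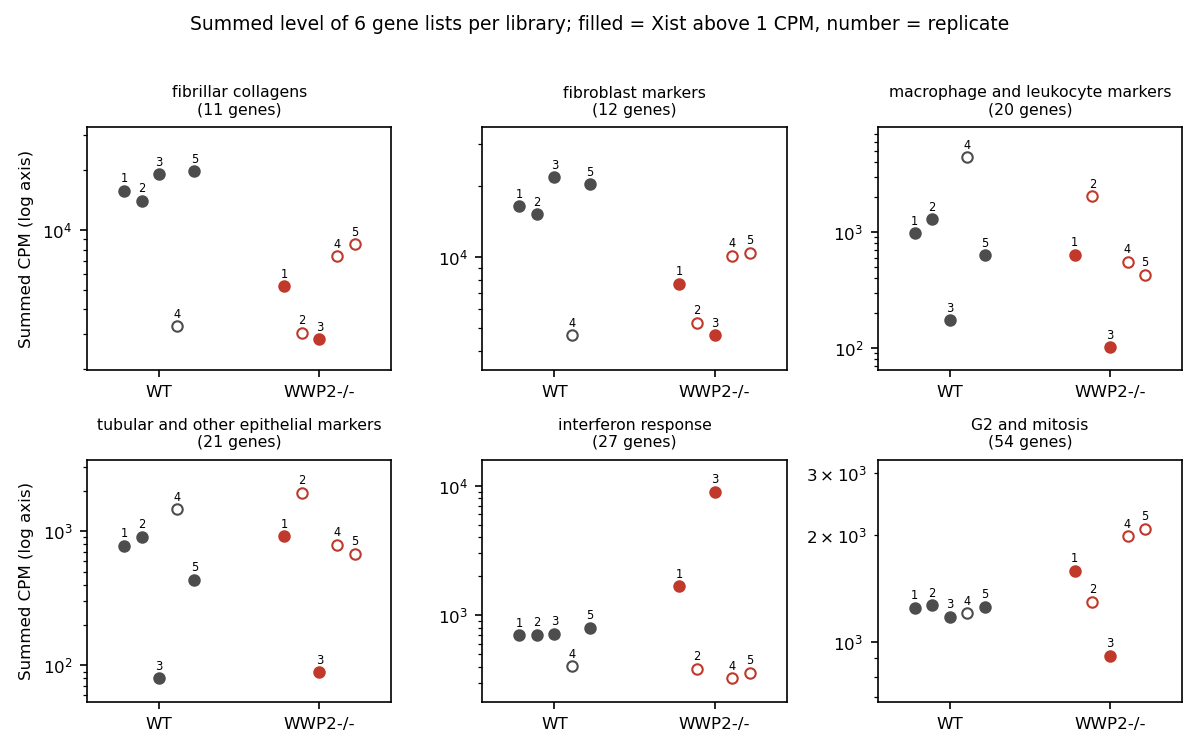
Summed CPM of 6 gene lists (log axis) in each untreated WT and WWP2-/- library; each point is 1 library, its number is the replicate, and filled points mark libraries with *Xist* above 1 CPM. WT replicate 4 sits at the WWP2-/- level for fibrillar collagens and fibroblast markers and has the highest macrophage sum (4390 CPM), and WWP2-/- replicate 3 has the highest interferon sum (8990 CPM).

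Between untreated WWP2-/- and WT myofibroblasts, 148 of 20407 genes (0.725%) had an adjusted *P* below 0.05 in edgeR's quasi-likelihood test. Of these, 127 (0.622% of genes tested) were lower and 21 (0.103%) higher in WWP2-/- cells. The decreases were large, with 90 of 127 genes beyond −2 on the log2 scale and 52 genes under 1 CPM in every WWP2-/- library, whereas 5 of 21 increases were beyond 2. Of the genes called, 135 were protein coding and 13 were not. The median log2 fold change of all genes tested was 0.08, and 42% of them were negative. An unadjusted *P* below 0.05 was found for 3044 genes (14.9%), 1648 higher (8.08%) and 1396 lower (6.84%), the shares against which unadjusted counts of a list are to be read.

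The lower genes shared a distribution over libraries. WT replicate 4 was the lowest WT library for 123 of the 127 genes and overlapped the WWP2-/- libraries for 84, while WT replicates 1, 2, 3, and 5 did so for 0. WT replicates 1, 2, and 5 all lay between WT replicates 3 and 4 for 78 of 127 genes (61.4%), against 34% of all genes tested. Consequently, WWP2-/- and WT libraries did not overlap for only 43 of the 127 lower genes, but they did not overlap for 18 of the 21 higher genes; over all genes tested, 2.79% did not overlap, 1.29% lower and 1.5% higher. Among libraries with *Xist*, both WWP2-/- libraries lay below all 4 WT libraries for 127 of 127 lower genes. Among libraries without *Xist*, WT replicate 4 lay above all 3 WWP2-/- libraries for 49 of 127. For the 21 higher genes, the corresponding counts were 20 with *Xist* and 19 without it. These genes were called from the same libraries, so their order over the libraries was partly set by that selection. Except where a share is given above, the same counts were not made over all genes tested.

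**Figure D2:**
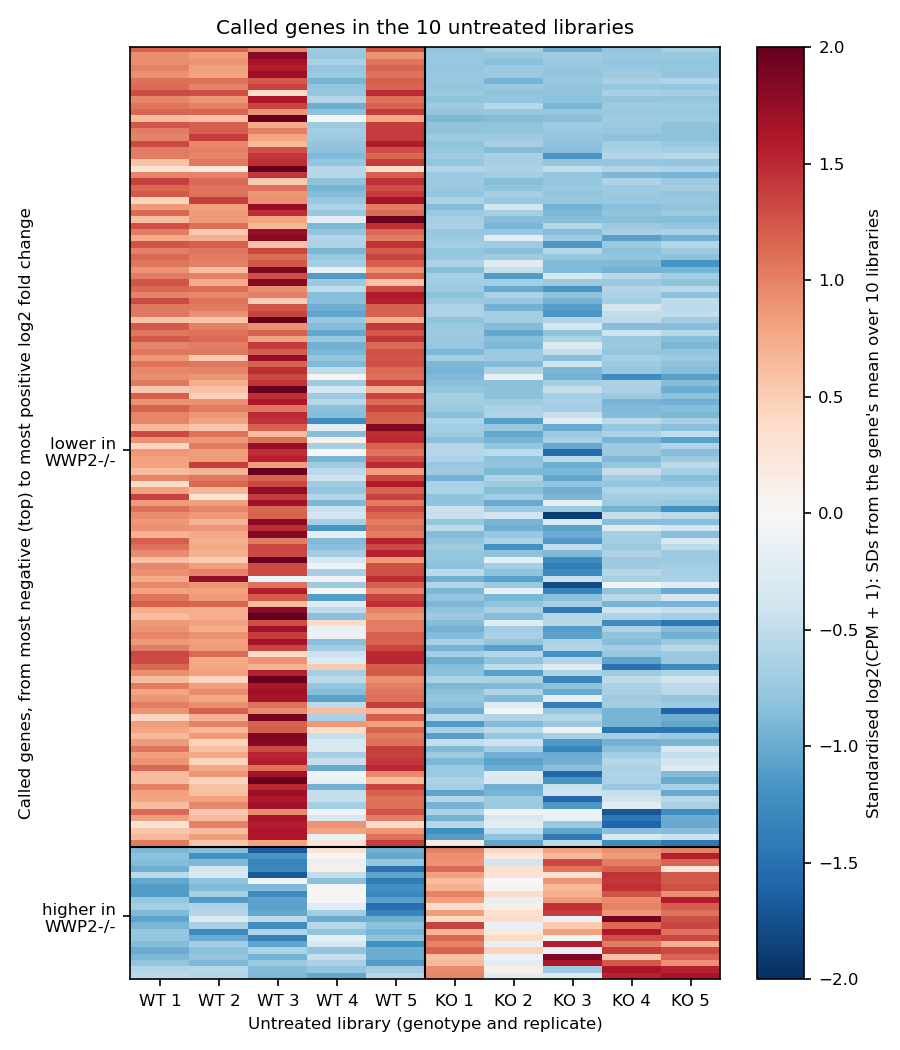
Genes called between untreated WWP2-/- and WT libraries (rows, 127 lower above the line and 21 higher below it) in the 10 libraries (columns); colour is the log2(CPM + 1) of a gene in SDs from its mean over the 10 libraries. The columns marked KO are WWP2-/- libraries. For most of the 127 lower genes WT replicate 4 has the blue or pale shade of the WWP2-/- libraries, and for many of the 21 higher genes it is paler than the other WT libraries.

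The number of genes called changed with single libraries. Without WT replicate 4 it was 744 (538 lower, 206 higher, all 148 genes among them). It was 1, *Wwp2* alone, without WT replicate 3 or 5, without WWP2-/- replicate 1, 4, or 5, with the replicate number as a block, and when only the 10 untreated libraries were fitted. The Wald test of DESeq2, the test of the study's methods, called 743 of 20407 genes (531 lower, 212 higher) including all 148. Counts of a list in DESeq2 are to be read against these numbers. A fit that included the level of *Xist* called 87 genes, most of them increases (65 against 22 decreases), and shared 28 with the 148. All 148 genes kept their direction in each of these fits. Comparing genotypes only among the 6 libraries with *Xist* called 2500 genes, and only among the 4 without it 2 genes, where WT is the single library of replicate 4 and its spread was taken from the other groups. Of the 148 genes, 91 kept their direction in the latter. With *Xist* in 4 of 5 WT but in 2 of 5 WWP2-/- libraries, the genotypes were not balanced for it, and the labels give no sex.

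**Figure D3:**
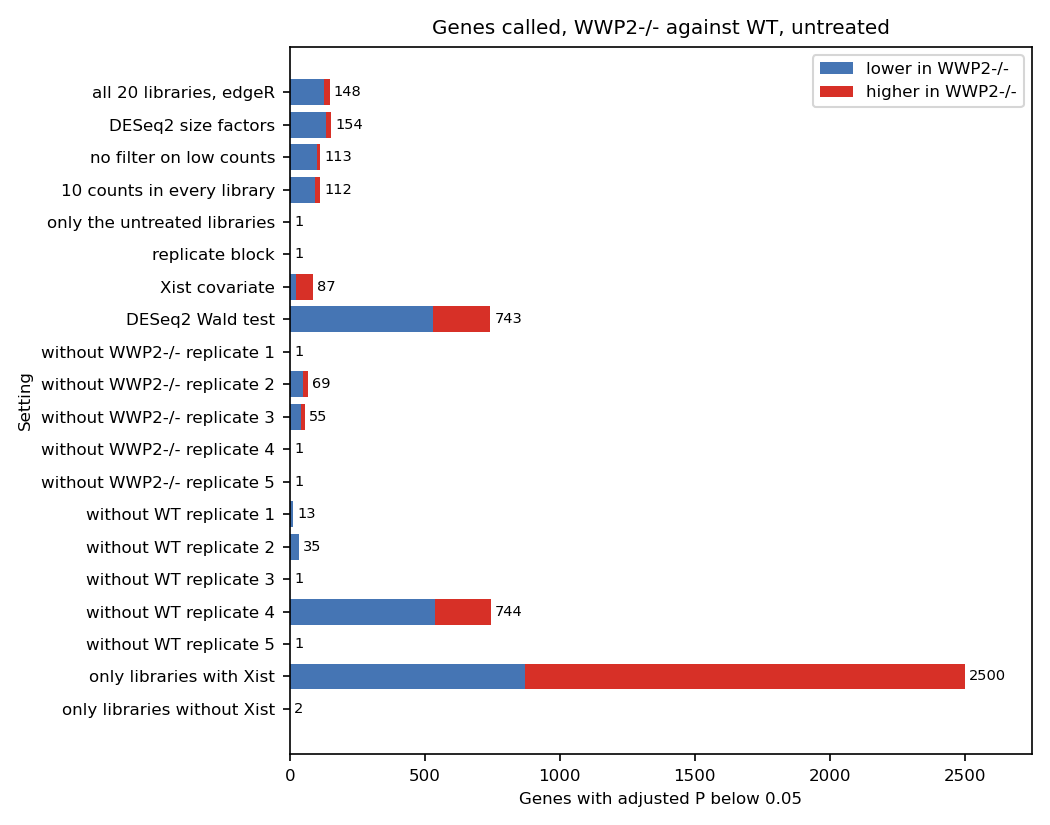
Number of genes with adjusted *P* below 0.05 between untreated WWP2-/- and WT myofibroblasts (horizontal axis) in each setting (vertical axis), with lower genes in blue and higher genes in red. The number is 148 with all libraries, 744 without WT replicate 4, and 1 in 7 of the other settings.

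Of the 148 genes, 28 also passed with *Xist* as a covariate, of which 15 were lower and 13 higher. All 28 passed in DESeq2 too, but DESeq2 called all 148 and so removed none. *Rassf2*, a Ras-association domain protein and candidate tumor suppressor, was at 3.36, 3.89, 1.81, 3.77, and 3.78 CPM in WWP2-/- and at 16.4, 14.7, 21.7, 6.71, and 21.2 CPM in WT replicates 1 to 5. The libraries did not overlap, and WT replicate 4 lay between the WWP2-/- libraries and the other WT libraries. The log2 fold change was −2.28 (standard error 0.356, adjusted *P* = 0.0214, edgeR) and −0.81 among libraries without *Xist*.

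*Gas6*, the secreted ligand of the TYRO3, AXL, and MERTK receptors, was at 116, 217, 80.2, 125, and 105 CPM in WWP2-/- and at 477, 487, 910, 246, and 555 CPM in WT replicates 1 to 5. WT replicate 4 was again the lowest WT library, yet above all WWP2-/- libraries, and the log2 fold change was −2.06 (standard error 0.339, adjusted *P* = 0.0214, edgeR). *Smpdl3a*, a secreted phosphodiesterase related to acid sphingomyelinase, was at 32.7 to 44.4 CPM in WWP2-/- and at 64.8 CPM in WT replicate 4 and 132 to 185 CPM in the other WT libraries (log2 fold change −1.84, adjusted *P* = 0.0214, edgeR). Both genes were therefore lower in every WWP2-/- library than in every WT library.

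*Col27a1* encodes a fibrillar collagen chain of cartilage and other tissues. It was at 3.08, 4, 4.81, 1.83, and 2.25 CPM in WWP2-/- and at 12, 9.54, 8.89, 8.10, and 12.5 CPM in WT libraries. The groups did not overlap, the log2 fold change was −1.68 (standard error 0.317, adjusted *P* = 0.0255, edgeR), and it was −1.45 where *Xist* was present and −1.59 where it was not.

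*Matn4*, a matrilin that bridges matrix filaments, was at 0.415 to 0.866 CPM in WWP2-/- libraries, at 0.994 CPM in WT replicate 4, and at 6.38 to 12.9 CPM in the other WT libraries (log2 fold change −3.39, adjusted *P* = 0.0214, edgeR). *Rbpjl*, a paralog of the Notch effector RBPJ, and the RNA *A830019P07Rik* were called as well, the former at no more than 0.795 CPM and the latter at no more than 1.14 CPM in any library. *Rbpjl* overlaps *Matn4* on the other strand of chromosome 2 in the annotation, and as no strand setting is stated for the counting, reads of the pair may not be separated. *Mettl7b*, a methyltransferase-like protein, had 0 to 3 counts in WWP2-/- libraries, 3 in WT replicate 4, and 52 to 105 in the other WT libraries, and *AW551984* had 0 or 1 count in WWP2-/- libraries, 1 in WT replicate 4, and 22 to 38 in the others. For these low genes the counts are given in place of a fold change.

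Insulin-like growth factor (IGF) genes were among the lower genes. IGF binding proteins hold IGFs outside the cell and set how much reaches the receptor. *Igfbp6*, whose product prefers IGF2, was at 18.6, 14.6, 39.9, 19, and 14.3 CPM in WWP2-/- and at 282, 305, 548, 13.3, and 360 CPM in WT replicates 1 to 5. Thus 4 WT libraries were far above all WWP2-/- libraries and WT replicate 4 was below all of them. The log2 fold change was −3.83 (standard error 0.684, adjusted *P* = 0.0214, edgeR), −3.68 among libraries with *Xist*, and 0.27 among libraries without it.

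*Igf2*, the ligand itself, was at 1.65, 1.58, 0.362, 1.42, and 2.06 CPM in WWP2-/- and at 43.2, 40.0, 15.8, 1.92, and 57.6 CPM in WT libraries (log2 fold change −4.48, adjusted *P* = 0.0350, edgeR). Its imprinted neighbor on chromosome 7, the noncoding RNA *H19*, was at 0.701, 1.35, 0, 0.736, and 1.36 CPM in WWP2-/- and at 320, 314, 178, 1.09, and 396 CPM in WT libraries (log2 fold change −8.17, standard error 1.67, adjusted *P* = 0.0326, edgeR). Both transcripts were thus low together in all WWP2-/- libraries and in WT replicate 4. *Igfbp4* was at 1.31 to 5.96 CPM in WWP2-/- libraries, at 11.3 CPM in WT replicate 4, and at 29.6 to 60.5 CPM in the other WT libraries, with no overlap (log2 fold change −3.00, adjusted *P* = 0.0395, edgeR). Of 40 genes tested in a list of growth factors and their receptors, 4 were lower, 0 were higher, and the median log2 fold change was 0.07. Of all genes tested, 0.622% were lower and 0.103% higher. The fourth was *Vegfd*, a lymphangiogenic growth factor, at 10.3, 4.08, 19.5, 12.8, and 9.86 CPM in WWP2-/- and at 246, 234, 388, 3.90, and 317 CPM in WT libraries (log2 fold change −4.40, adjusted *P* = 0.0467, edgeR).

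**Figure D4:**
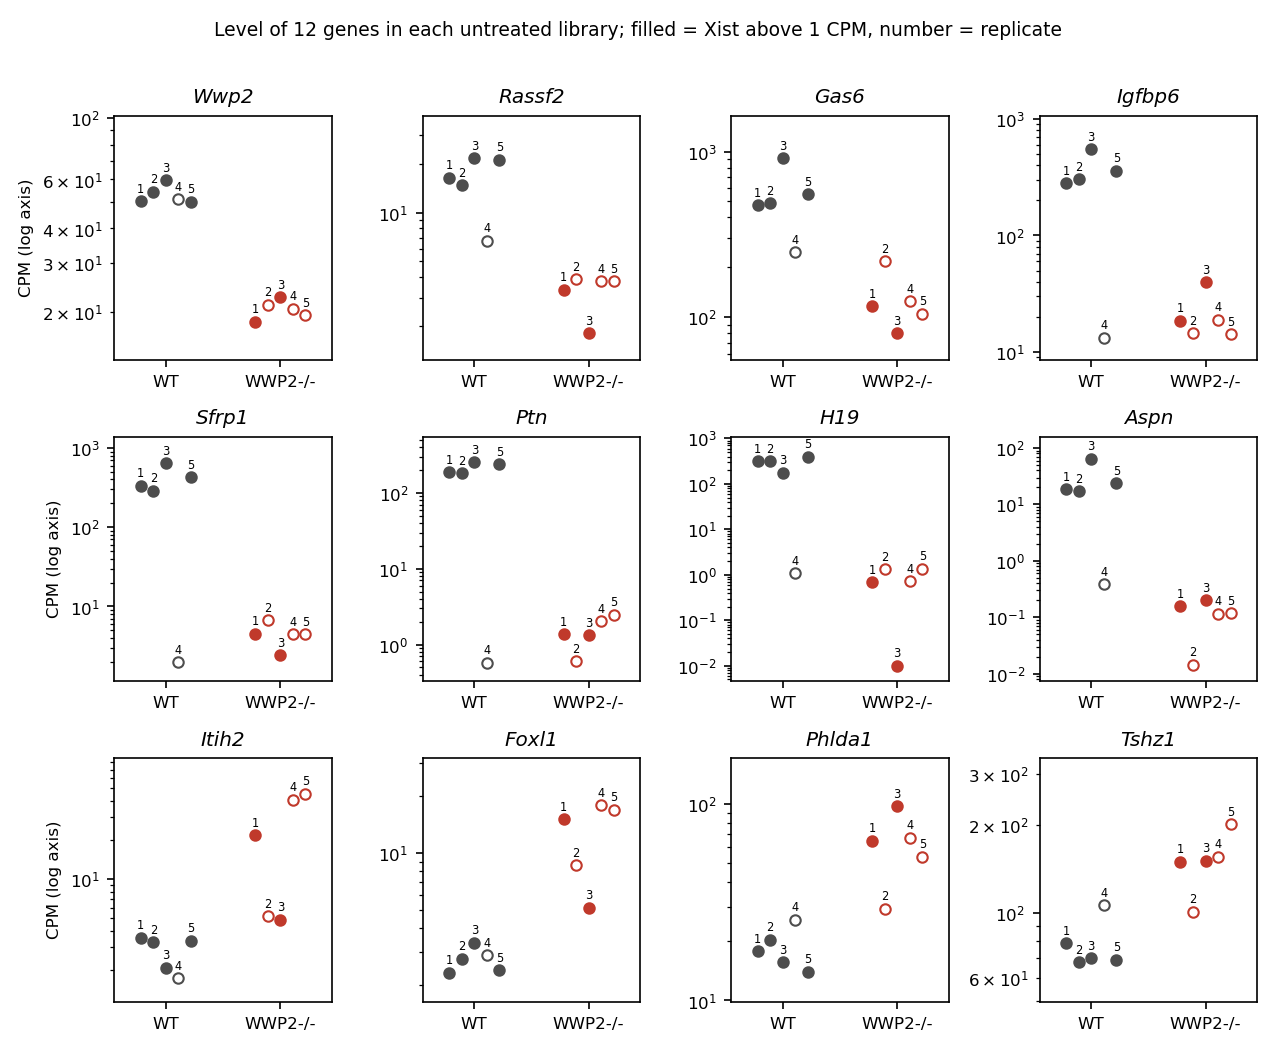
Level of 12 genes in CPM (log axis) in each untreated WT and WWP2-/- library; each point is 1 library, its number is the replicate, filled points mark libraries with *Xist* above 1 CPM, and the 0 of *H19* in WWP2-/- replicate 3 is drawn at 0.01. WT replicate 4 is at the level of the other WT libraries for *Wwp2* (51.1 CPM), below every WWP2-/- library for *Igfbp6*, *Sfrp1*, and *Ptn*, and the highest WT library for *Phlda1* and *Tshz1*.

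Genes of the ECM made up a larger share of the lower genes than of all genes tested. The lists were chosen with earlier results of these data known, so the shares describe these lists and are no independent test. Of 196 genes tested in 8 lists of matrix genes, 15 (7.65%) were lower and 0 higher, against 0.622% lower of all genes tested, and 143 of 196 (73%) had a negative log2 fold change. Their median log2 fold change was −0.50, against 0.08 for all genes. The median was −0.57 without WT replicate 4, −0.51 without WWP2-/- replicate 3, −0.63 with *Xist* as a covariate, −0.90 among libraries with *Xist*, and 0.27 among libraries without it. With *Xist* as a covariate 2 of the 196 genes were called.

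Of 11 fibrillar collagen genes, 3 were lower and the median log2 fold change of the list was −1.06. These were *Col27a1*, *Col5a2*, and *Col24a1*. *Col5a2*, which forms the heterotypic fibrils of collagen I with collagen V, was at 432 to 629 CPM in WWP2-/- libraries, at 570 CPM in WT replicate 4, and at 1720 to 2470 CPM in the other WT libraries (log2 fold change −1.74, standard error 0.399, adjusted *P* = 0.0494, edgeR). *Col24a1* was at 0.387 to 1.47 CPM in WWP2-/- libraries, at 0.388 CPM in WT replicate 4, and at 9.73 to 17.7 CPM in the other WT libraries (log2 fold change −4.01, adjusted *P* = 0.0432, edgeR). Summed over the 11 genes, the level was 14100 to 19900 CPM in WT replicates 1, 2, 3, and 5, 3310 CPM in WT replicate 4, and 2840 to 8500 CPM in WWP2-/- libraries.

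Of 18 other collagen genes, 2 were lower, with a median of −0.43. *Col8a2*, a network-forming collagen of vessels and the cornea, was at 0.299, 0.359, 0.262, 0.332, and 0.356 CPM in WWP2-/- and at 24.2, 20.5, 73.4, 0.854, and 29.3 CPM in WT libraries. It did not overlap between genotypes, and the log2 fold change was −6.52 (adjusted *P* = 0.0214, edgeR; standard error 1.12), but WT replicate 4 was far below the other WT libraries, and the value was −1.29 among libraries without *Xist*. *Col28a1* was at 0.564 to 0.890 CPM in WWP2-/- libraries, at 0.404 CPM in WT replicate 4, and at 18.0 to 40.0 CPM in the others (log2 fold change −5.07, adjusted *P* = 0.0214, edgeR).

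Small leucine-rich proteoglycans bind collagen fibrils and affect their diameter. Of 22 proteoglycan genes 3 were lower, with a median of −0.81. *Aspn* (asporin, chromosome 13, 49544443 to 49567565, plus strand) was at 0.156, 0.0144, 0.201, 0.116, and 0.119 CPM in WWP2-/- and at 18.8, 17.4, 64.4, 0.388, and 23.8 CPM in WT libraries (log2 fold change −7.68, standard error 1.34, adjusted *P* = 0.0214, edgeR). *Prelp* was at 0.0805 to 2.49 CPM in WWP2-/- libraries, at 0.823 CPM in WT replicate 4, and at 65.5 to 155 CPM in the others (log2 fold change −5.52, adjusted *P* = 0.0264, edgeR). *Ecm2* gave −2.84 (adjusted *P* = 0.0404, edgeR). Apart from WT replicate 4, each of the 3 was higher in every WT library than in any WWP2-/- library.

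Among 40 matrix glycoproteins and matricellular proteins, 6 were lower, with a median of −1.09. These were *Matn4*, *Cilp*, *Srpx*, *Svep1*, *Ccn3*, and *Sparcl1*. *Svep1*, a large adhesion protein of the vessel wall, was at 55.1 to 112 CPM in WWP2-/- libraries, at 79.4 CPM in WT replicate 4, and at 385 to 682 CPM in the other WT libraries (log2 fold change −2.37, adjusted *P* = 0.0270, edgeR). *Ccn3*, a matricellular protein of the CCN family that the rule for named genes leaves out, was at 8.89 to 50.7 CPM, 22.7 CPM, and 501 to 745 CPM in the same order (log2 fold change −4.44, adjusted *P* = 0.0432, edgeR). *Cilp*, a cartilage intermediate layer protein, was at or under 0.101 CPM in WWP2-/- libraries and at 0.0621 CPM in WT replicate 4, and was at 0.707 to 6.36 CPM in the others, the highest in WT replicate 3.

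Of 44 matrix proteases and inhibitors, 1 was called. *Mmp11* (stromelysin-3), an MMP activated inside the cell, was at 35.2 to 90.5 CPM in WWP2-/- libraries, at 40.1 CPM in WT replicate 4, and at 295 to 792 CPM in the other WT libraries (log2 fold change −2.76, adjusted *P* = 0.0313, edgeR). The 3 remaining lists had 0 calls in edgeR. For 18 elastic fibre genes the median was −1.78, with 10 lower at an unadjusted *P* below 0.05 (6.84% of all genes) and 7 in DESeq2. For 23 basement membrane genes it was −0.28, with 6 and 3, but 0.01 without WWP2-/- replicate 3, where 12 genes were positive against 7 with it. It was −0.17 for 21 genes of collagen crosslinking and hydroxylation, with 5 and 2. Over all 20407 genes tested, DESeq2 called 531 lower. *Fbln5*, which links elastin to cells, was at 50 to 167 CPM in WWP2-/- libraries and at 27.5 CPM in WT replicate 4 against 857 to 1170 CPM in the other WT libraries (log2 fold change −2.71, adjusted *P* = 0.0825, edgeR). Its adjusted *P* in DESeq2's Wald test was 0.00205.

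**Figure D5:**
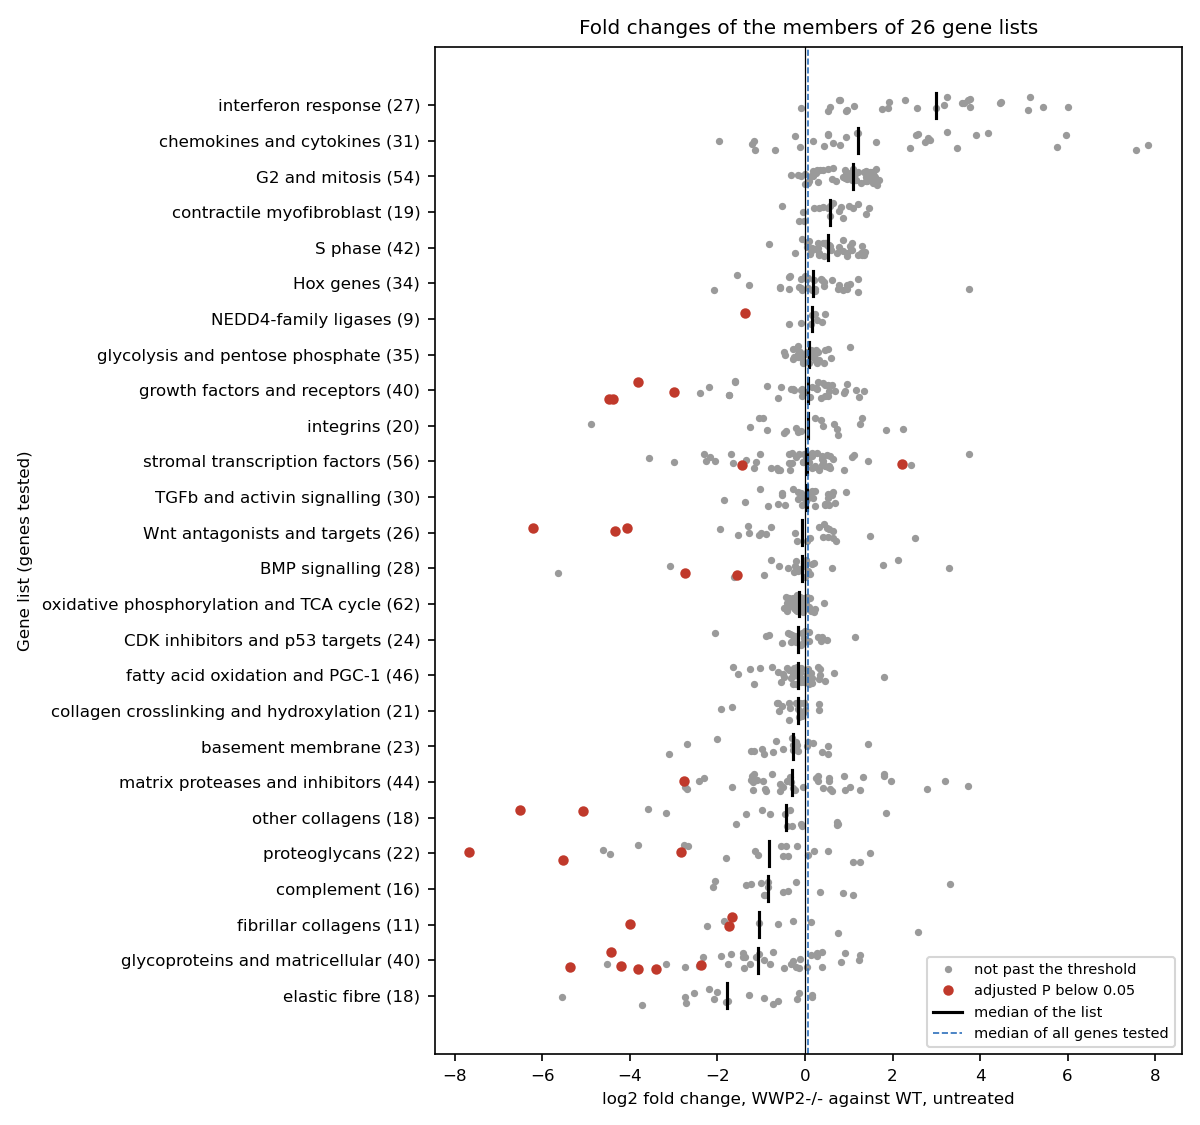
Log2 fold change between untreated WWP2-/- and WT myofibroblasts (horizontal axis) of each tested member of 26 gene lists (rows, number of genes in parentheses); points are genes, red points passed an adjusted *P* of 0.05, bars are list medians, and the dashed line is the median of all genes tested (0.08). The matrix lists lie to the left, with medians from −1.78 to −0.17, and the interferon list farthest to the right (2.99) without a gene called.

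A few modulators of Wnt and BMP signalling were called, all of them lower, while the medians of both lists were near 0. SFRP1 binds Wnt ligands outside the cell, NKD1 is a target of the pathway that damps it, and RSPO2 enhances it at the receptor. *Sfrp1* (chromosome 8, 23411502 to 23449632, plus strand) was at 4.56, 6.72, 2.42, 4.49, and 4.46 CPM in WWP2-/- and at 334, 290, 643, 1.97, and 430 CPM in WT libraries. WT replicate 4 was below every WWP2-/- library, and the log2 fold change was −6.23 (standard error 1.12, adjusted *P* = 0.0214, edgeR), −6.92 where *Xist* was present, and 1.40 where it was not. *Nkd1* was at 0.282 to 2.02 CPM in WWP2-/- libraries, at 2.20 CPM in WT replicate 4, and at 22.4 to 39.5 CPM in the others (log2 fold change −4.34, adjusted *P* = 0.0308, edgeR), without overlap. *Rspo2* gave −4.06 (adjusted *P* = 0.0475, edgeR), with 0.450 CPM in WT replicate 4 and 22.9 to 43.3 CPM in the other WT libraries. These 3 were the genes called among 26 tested in the Wnt list, against 0.622% lower of all genes tested. Of the 26, 13 had a negative and 13 a positive log2 fold change, with a median of −0.07. DESeq2 called 1 gene higher and 4 lower in this list.

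Of 28 BMP genes, 2 were lower (0.622% of all genes tested were), 17 had a negative log2 fold change, and the median was −0.07. DESeq2 called 1 higher and 4 lower. *Gdf6*, a BMP-family ligand, was at 8.04, 5.81, 5.74, 4.42, and 3.13 CPM in WWP2-/- and at 41.9, 37.2, 44.2, 8.07, and 51.7 CPM in WT libraries, so that the groups did not overlap but WT replicate 4 and WWP2-/- replicate 1 were nearly equal (log2 fold change −2.75, adjusted *P* = 0.0214, edgeR). *Chrd*, the extracellular BMP antagonist chordin, was at 4.88 to 8.21 CPM in WWP2-/- libraries, at 4.22 CPM in WT replicate 4, and at 15.8 to 28.2 CPM in the others (log2 fold change −1.54, adjusted *P* = 0.0432, edgeR). Of 30 genes of TGFβ and activin signalling 0 were called in edgeR and 0 in DESeq2, with 3 higher and 6 lower at an unadjusted *P* below 0.05 (8.08% and 6.84% of all genes) and a median of 0.04. The homeobox gene *Msx1*, a target of BMPs, was at 0.682 to 0.974 CPM in WWP2-/- libraries, at 0.900 CPM in WT replicate 4, and at 1.82 to 3.91 CPM in the others (log2 fold change −1.44, adjusted *P* = 0.0432, edgeR).

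Other lower genes belonged to lists of stromal and vascular cell markers. *Ptn* (pleiotrophin, chromosome 6, 36714929 to 36810220, minus strand), a heparin-binding growth factor listed with pericyte and mesangial markers, was at 1.38, 0.603, 1.33, 2.04, and 2.48 CPM in WWP2-/- and at 190, 182, 253, 0.574, and 240 CPM in WT libraries. The 4 WT libraries with *Xist* were far above all others. The log2 fold change between all WWP2-/- and all WT libraries was −6.79 (standard error 1.3, adjusted *P* = 0.0258, edgeR). It was 1.56 among libraries without *Xist*, where WT is replicate 4 alone. *Tek*, the angiopoietin receptor listed with endothelial markers, was at 0.712 to 1.63 CPM in WWP2-/- libraries, at 0.792 CPM in WT replicate 4, and at 9.48 to 18.4 CPM in the others (log2 fold change −3.32, adjusted *P* = 0.0230, edgeR), but it was the 1 gene called of 16 endothelial markers, of which 12 had a positive log2 fold change (median 0.98). The summed endothelial markers were at 82.3 to 131 CPM in WT and 21.3 to 253 CPM in WWP2-/- libraries. *Clec3b* (tetranectin), an adventitial fibroblast marker, gave −4.64 (adjusted *P* = 0.0308, edgeR). *Tnmd* (tenomodulin), a tendon gene, had 0 to 3 counts in WWP2-/- libraries, 0 in WT replicate 4, and 153 to 170 in the other WT libraries. It was the 1 gene called of 15 chondrocyte and tendon markers, of which 9 had a positive log2 fold change (median 0.12). *Ptn* was the 1 gene called of 14 pericyte and mesangial markers (8 negative, median −0.49), and *Clec3b* of 17 adventitial markers (12 negative, median −1.11). Of all genes tested, 0.725% were called.

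No gene was called among fibroblast, macrophage, epithelial, skeletal muscle, or adipocyte, glial, and mesothelial markers in edgeR. At an unadjusted *P* below 0.05, the numbers were 5 of 12 lower for fibroblast, 0 of 20 for macrophage, 1 higher and 1 lower of 21 for epithelial, 1 and 1 of 14 for muscle, and 1 and 1 of 12 for the last list, and DESeq2 called 3, 0, 0, 1, and 0 of them. The median log2 fold change of fibroblast markers was −1.79, and 1.18 among libraries without *Xist*. *Fap*, a marker of activated fibroblasts, was at 0.115 to 1.49 CPM in WWP2-/- libraries, at 0.295 CPM in WT replicate 4, and at 9.75 to 36 CPM in the other WT libraries (log2 fold change −4.78, adjusted *P* = 0.0882, edgeR). Its adjusted *P* in DESeq2's Wald test was 0.000451.

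Among the remaining large decreases, *C1qtnf3*, an adipokine-like secreted protein, was at 0.688 to 1.27 CPM in WWP2-/- libraries, at 5.87 CPM in WT replicate 4, and at 18.1 to 25.6 CPM in WT replicates 1, 2, and 5, but at 232 CPM in WT replicate 3 (log2 fold change −5.98, adjusted *P* = 0.0214, edgeR). *Scg2*, a secretogranin of secretory granules, was at 0.0296 to 0.344 CPM, 0.528 CPM in WT replicate 4, and 7.37 to 12.6 CPM in the others (log2 fold change −5.33, adjusted *P* = 0.0214, edgeR). Both were without overlap. *Apba2*, *Cntnap3*, *Cpxm2*, *Sprr3*, *Angptl1*, and *Serpinb7* were at or under 0.245 CPM in every WWP2-/- library and in WT replicate 4 and at 1.94 to 15.4 CPM in WT replicates 1, 2, 3, and 5. *Serpinb7* had at most 2 counts in a WWP2-/- library, 0 in WT replicate 4, and 121 to 190 in the others.

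The 21 higher genes had mostly smaller fold changes than the lower genes, and 18 of them did not overlap between genotypes. *Itih2*, a heavy chain that attaches to hyaluronan, was at 21.7, 5.17, 4.87, 40.9, and 45.6 CPM in WWP2-/- and at 3.53, 3.26, 2.07, 1.71, and 3.34 CPM in WT replicates 1 to 5. WWP2-/- replicates 2 and 3 were much lower than the other 3, yet above all WT libraries, and the log2 fold change was 3.09 (standard error 0.564, adjusted *P* = 0.0214, edgeR), 2.13 among libraries with and 4.16 among libraries without *Xist*. *Coch* (cochlin), an ECM protein of the inner ear, was at 7.96, 3.33, 1.07, 15.5, and 14.3 CPM in WWP2-/- and at 0.838 to 1.37 CPM in WT libraries (log2 fold change 2.91, adjusted *P* = 0.0255, edgeR), with WWP2-/- replicate 3 inside the WT range. With *Xist* as a covariate the adjusted *P* was 0.0588 for *Itih2* and 0.0651 for *Coch*.

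*Foxl1*, a forkhead transcription factor of mesenchyme, was at 15.1, 8.64, 5.15, 18.0, and 17.0 CPM in WWP2-/- and at 2.33, 2.76, 3.35, 2.89, and 2.40 CPM in WT libraries, without overlap (log2 fold change 2.22, standard error 0.483, adjusted *P* = 0.0432, edgeR). It and *Msx1* were the 2 genes called among 56 stromal transcription factors, whose median was 0.06, against 0.725% called of all genes tested. *Phlda1*, a pleckstrin homology-like protein, was at 64.9, 29.3, 97.0, 67.2, and 53.8 CPM in WWP2-/- and at 17.8, 20.4, 15.6, 25.8, and 14.0 CPM in WT libraries (log2 fold change 1.74, standard error 0.383, adjusted *P* = 0.0432, edgeR). The groups were apart, with WWP2-/- replicate 2 and WT replicate 4 nearest to each other, and the call held with *Xist* as a covariate (adjusted *P* = 0.0453).

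*Tshz1*, a teashirt zinc finger factor, was at 101 to 201 CPM in WWP2-/- and at 67.7 to 106 CPM in WT libraries (log2 fold change 0.96, adjusted *P* = 0.0324, edgeR), where WT replicate 4 overlapped WWP2-/- replicate 2. *Slc4a8*, a sodium-driven bicarbonate exchanger, was at 3.79 to 5.76 CPM in WWP2-/- and at 1.79 to 2.55 CPM in WT libraries (log2 fold change 1.12, adjusted *P* = 0.0354, edgeR) without overlap. *Fbxo16*, an F-box substrate adaptor of SCF ubiquitin ligases, was at 1.29 to 2.17 CPM and 0.536 to 1.1 CPM (log2 fold change 1.06, adjusted *P* = 0.0270, edgeR). *Nkain2* (log2 fold change 1.54), *2610318N02Rik* (1.56), and *Oacyl* (2.65) were the others among the 10 largest increases with a mean of at least 1 CPM, and with *Phlda1*, *Slc4a8*, and *Fbxo16* they also passed with *Xist* as a covariate.

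Smaller increases were seen in genes that varied little within a genotype. *Fhl3*, a LIM-domain protein, was at 45.6 to 61.1 CPM in WWP2-/- and at 25.5 to 40.3 CPM in WT libraries (log2 fold change 0.83, adjusted *P* = 0.0232, edgeR). *Lmo4*, a LIM-only transcriptional cofactor, was at 96.1 to 132 CPM and 55.9 to 81.6 CPM (log2 fold change 0.65, adjusted *P* = 0.0270, edgeR). *Smn1*, the assembly factor of spliceosomal ribonucleoproteins, was at 29.3 to 44.2 CPM and 20.1 to 28.6 CPM (log2 fold change 0.71, adjusted *P* = 0.0260, edgeR). None of these 3 overlapped, but in *Fhl3* and *Smn1* WT replicate 4 was again the WT library nearest to WWP2-/-. They were not among the genes that the rule for named genes selects and were chosen after their values were seen.

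Promoters were inspected in these genes that moved together, because the study follows TWIST1, a basic helix-loop-helix transcription factor that binds E-boxes, in myofibroblasts. The letters CAGATG, on either strand, and the palindrome CATATG were searched in the 250 bases before the RefSeq start sites of GRCm38.p6, where sequences were found for 97 of 127 lower, 15 of 21 higher, and 13085 of all genes tested. Either motif was held by 16 of 97 lower (16.5%), 4 of 15 higher (26.7%), and 14.3% of all genes. A match is a description of letters and not a binding site. The 2 largest decreases and the largest increase that hold a motif, with a mean of at least 1 CPM and 1 start site in the table, are printed 5′ to 3′ with the motif in capitals, for *Vegfd* at chrX:164373272-164373521 (plus strand, motif beginning 176 bases before the start), *Igfbp6* at chr15:102143936-102144185 (plus strand, 173 bases), and *Nkain2* at chr10:32889916-32890165 (minus strand, 96 bases). In the GENCODE annotation *Nkain2* begins at 32890462 on the minus strand, so its printed stretch lies inside the annotated gene. *Vegfd* begins at 164373378, within its printed stretch. The bases after the RefSeq start used for *Igfbp6* were not found in the GENCODE transcripts, whose gene begins downstream of it, at 102144362:
Vegfd: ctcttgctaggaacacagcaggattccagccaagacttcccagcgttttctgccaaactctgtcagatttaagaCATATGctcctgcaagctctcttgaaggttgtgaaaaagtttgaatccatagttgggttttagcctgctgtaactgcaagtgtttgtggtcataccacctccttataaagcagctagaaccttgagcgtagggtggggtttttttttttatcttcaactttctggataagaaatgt
Igfbp6: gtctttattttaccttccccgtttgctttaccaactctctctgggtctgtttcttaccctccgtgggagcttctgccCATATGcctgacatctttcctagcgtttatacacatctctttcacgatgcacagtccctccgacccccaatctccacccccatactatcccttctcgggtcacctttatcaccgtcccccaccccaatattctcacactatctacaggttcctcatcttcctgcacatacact
Nkain2: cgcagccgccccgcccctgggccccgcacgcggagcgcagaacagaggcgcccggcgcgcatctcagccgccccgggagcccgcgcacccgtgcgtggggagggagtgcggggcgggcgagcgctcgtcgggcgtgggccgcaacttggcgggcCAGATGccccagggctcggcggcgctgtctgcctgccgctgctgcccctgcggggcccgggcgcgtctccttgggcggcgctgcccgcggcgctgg

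Genes that mark the myofibroblast state were not called in edgeR. *Acta2*, encoding smooth muscle α-actin, was at 2000, 1760, 38.9, 3280, and 3230 CPM in WWP2-/- and at 1070, 1270, 1020, 1300, and 1130 CPM in WT libraries. All WWP2-/- libraries except replicate 3 were above all WT libraries, and the log2 fold change was 0.83 (standard error 0.758, adjusted *P* = 0.630, edgeR) and 1.15 without WWP2-/- replicate 3. Of 19 contractile genes 15 had a positive log2 fold change, 18 without WWP2-/- replicate 3, and 0 were called in edgeR and 0 in DESeq2, with 1 higher at an unadjusted *P* below 0.05. Their median was 0.57, and 0.87 without that library, but −0.32 with *Xist* as a covariate and −0.14 among libraries with *Xist*.

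*Col1a1*, the α1 chain of collagen I, was at 1970, 1130, 703, 3010, and 3730 CPM in WWP2-/- and at 4790, 4340, 5790, 854, and 6150 CPM in WT libraries (log2 fold change −1.06, standard error 0.565, adjusted *P* = 0.385, edgeR). The 4 WT libraries with *Xist* were above all WWP2-/- libraries, and the value was 1.62 among libraries without *Xist*. *Postn* (periostin) gave −2.43 (adjusted *P* = 0.104, edgeR), with 55.0 to 304 CPM in WWP2-/- libraries, 174 CPM in WT replicate 4, and 627 to 1110 CPM in the others. In edgeR, *Fn1* (fibronectin) gave 0.39 (adjusted *P* = 0.755), *Vim* (vimentin) 0.11 (adjusted *P* = 0.893), and *Twist1* −2.17 (adjusted *P* = 0.435). *Postn* passed with an adjusted *P* of 0.00637 in DESeq2's Wald test and of 0.0315 in edgeR without WT replicate 4. DESeq2 did not call *Col1a1* (adjusted *P* = 0.307), *Twist1* (0.288), *Fn1* (0.773), or *Vim* (0.928). *Twist1* was at 11.1, 1.75, 49.0, 3.48, and 2.83 CPM in WWP2-/- and at 62.0, 63.1, 103, 0.481, and 77.7 CPM in WT libraries, so that WT replicate 4 was the lowest of all 10.

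Cell cycle genes had mostly positive fold changes without a call. Of 54 genes of G2 and mitosis 50 had a positive log2 fold change, with a median of 1.09 and 26 higher at an unadjusted *P* below 0.05 (8.08% of all genes), but 0 were called in edgeR and 0 in DESeq2. Their summed level was 1180 to 1270 CPM in WT libraries and 1590, 1300, 917, 1990, and 2090 CPM in WWP2-/- replicates 1 to 5, so WWP2-/- replicate 3 was below all WT libraries and the other 4 above them. Of 42 S phase genes 39 had a positive log2 fold change, with a median of 0.52, 0 calls in edgeR, 23 higher and 1 lower at an unadjusted *P* below 0.05, and 4 higher in DESeq2. Among libraries with *Xist* the medians were 0.34 for G2 and mitosis and 0.22 for S phase. Among those without it, where WT is replicate 4 alone, they were 1.90 and 0.73. *Ccna2* (cyclin A2) was at 13.8, 3.87, 1.15, 23.3, and 29.1 CPM in WWP2-/- and at 2.81 to 6.80 CPM in WT libraries (log2 fold change 1.48, adjusted *P* = 0.291, edgeR), and *Cdkn1a*, encoding the CDK inhibitor p21, gave −0.01 (standard error 0.229, adjusted *P* = 0.983, edgeR).

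Genes of energy metabolism had median log2 fold changes near 0. Of 62 genes of oxidative phosphorylation and the TCA cycle 52 had a negative log2 fold change, but the median was only −0.14, 0 were called in edgeR and 1 higher in DESeq2, and 2 were higher and 6 lower at an unadjusted *P* below 0.05. The median was −0.16 for 46 genes of fatty acid oxidation and PGC-1 and 0.09 for 35 genes of glycolysis and the pentose phosphate pathway, with 0 calls in edgeR. In DESeq2, 2 were lower in the former, and 1 higher and 1 lower in the latter, and the unadjusted numbers were 2 higher and 8 lower, and 5 higher and 1 lower. *Ppargc1a*, encoding the mitochondrial coactivator PGC-1α, was at 2.86, 9.41, 0.886, 1.57, and 1.62 CPM in WWP2-/- and at 5.13, 3.90, 0.675, 4.72, and 2.86 CPM in WT libraries (log2 fold change −0.08, standard error 0.683, adjusted *P* = 0.965, edgeR). All 37 mitochondrially encoded genes in the table had 0 counts in every library and were not measured.

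Interferon-stimulated genes, which answer viral or endogenous nucleic acids, were high in 2 WWP2-/- libraries. Their summed level was 1670, 385, 8990, 324, and 359 CPM in WWP2-/- replicates 1 to 5 and 401 to 800 CPM in WT libraries, so WWP2-/- replicates 1 and 3 were above, and replicates 2, 4, and 5 below, all WT libraries. Of 27 genes 26 had a positive log2 fold change with a median of 2.99, of 0.71 without WWP2-/- replicate 3, and of −0.50 among libraries without *Xist*, with 0 called in edgeR, 10 higher at an unadjusted *P* below 0.05, and 3 in DESeq2. *Rsad2* (viperin) was at 34.7, 1.51, 221, 1.31, and 1.69 CPM in WWP2-/- and at 0.307 to 2.75 CPM in WT libraries. Chemokine and cytokine genes had a median log2 fold change of 1.22 over 31 genes and of 0.46 without WWP2-/- replicate 3, with 0 called in edgeR, 9 higher and 1 lower at an unadjusted *P* below 0.05, and 5 higher in DESeq2. Complement (16 genes, median −0.84), integrin (20 genes, 0.07), Hox (34 genes, 0.18), and CDK inhibitor and p53 target lists (24 genes, −0.15) had 0 calls in edgeR as well, with 1, 2, 7, and 2 genes higher and 3, 4, 5, and 6 lower at an unadjusted *P* below 0.05, and DESeq2 called 0 complement genes, 1 lower integrin gene, 2 higher and 2 lower Hox genes, and 1 lower gene of the last list. The shares over all genes at an unadjusted *P* below 0.05 were 8.08% higher and 6.84% lower. In DESeq2, 212 of all 20407 genes were called higher and 531 lower. The complement median was 0.02 without WT replicate 4.

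The difference between genotypes was also set beside that of the TGFβ1-treated libraries. *Xist* was unbalanced there too, at 0.12 CPM in treated WT replicate 3 and 135 to 254 CPM in the other treated WT libraries. In treated WWP2-/- libraries it was at 225 CPM in replicate 1 and at most 0.0665 CPM in the others. For *Sfrp1*, treated WT replicate 3 was at 9.32 CPM and the other treated WT libraries at 486 to 1020 CPM. Similar values in both sets are therefore no independent support. By the interaction of genotype and treatment, 0 of 20407 genes were called in edgeR and 10 in DESeq2, and 1424 (6.98%) had an unadjusted *P* below 0.05. No pairing of treated with untreated libraries entered this test. *Acta2* was at 38.9 CPM in untreated WWP2-/- replicate 3 and at 50.4 CPM in treated WWP2-/- replicate 1. The other WWP2-/- libraries, treated or not, were at 1330 to 3430 CPM. Whether such libraries came from 1 culture was not tested. For *Wwp2* the log2 fold change was −1.37 untreated and −1.49 treated, for *Gas6* −2.06 and −2.09, for *Rassf2* −2.28 and −2.38, for *Igfbp6* −3.83 and −4.31, and for *Sfrp1* −6.23 and −7.57. The values were farther apart for *Itih2* (3.09 and −0.40), *Coch* (2.91 and −0.14), and *C1qtnf3* (−5.98 and −1.08), but the adjusted *P* of the interaction was 0.511 for each in edgeR. *Ccna2* was at 1.48 untreated and −1.76 treated (adjusted *P* of the interaction 0.511, edgeR).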

How the data were processed

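RNA of 20 cultured mouse renal myofibroblast libraries was sequenced as paired reads after poly(A) selection. The deposited file holds raw read counts per gene, which per the methods of the study the authors made by STAR alignment to GRCm38 (mm10) and featureCounts over exons, with no strand setting stated. Gene names and coordinates were taken from GENCODE on GRCm38. The counts were normalized by TMM and fitted in edgeR 4.0.16 (R 4.3.3) as 4 groups (20 libraries, no block) with the quasi-likelihood test and Benjamini–Hochberg adjustment over 20407 genes, which hold 99.98% of counts; a gene was called at an adjusted *P* below 0.05. CPM are TMM-scaled and not corrected for gene length. Data were simulated with the spread of each gene in these libraries (20407 genes, 50 changed per fold). In them the untreated comparison recovered 18% of 1.5-fold, 50% of 2-fold, 78% of 4-fold, and 90% of 8-fold changes. The changed genes had a mean of at least 1 CPM, and counts were drawn independently for each gene. No simulated library was made to stand apart over many genes, as WT replicate 4 did, so recovery in the real libraries may differ.

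Named genes were *Wwp2*; 9 genes that the study names in myofibroblasts; the 10 largest increases and 15 largest decreases called with a mean of at least 1 CPM; up to 4 called members of each of 36 gene lists, or the member with the smallest *P* where none was called; and up to 10 genes called also with *Xist* as a covariate and in DESeq2 1.42.0. Genes outside this rule were chosen after their values were seen. The members and lists were chosen with earlier results of these data known. Alternatives were DESeq2 size factors and its Wald test, other count filters, the untreated libraries alone, a replicate block, *Xist* as a covariate, a threshold of 0.01, leaving out each library, and, chosen after seeing the data, libraries with or without *Xist*.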

Additional observations from a re-analysis of the deposited data

Results flagged for a closer look

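In each group of 5 untreated libraries, the highest or lowest was examined for each of 85 named genes by the gap to its neighbor on the log2(CPM + 1) scale, against Dixon's critical value of 0.71. Chance flags about 1 in 20 independent groups. These genes share the same libraries and many were chosen by their values, so that rate does not hold here. Of 170 groups, 40 were flagged, and 27 of them were WT replicate 4. Levels are given in CPM.

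WT replicate 4 stood below the other WT libraries for 26 genes, which were *Scg2* (0.528), *Mettl7b* (0.0466), *Igfbp6* (13.3), *Sfrp1* (1.97), *Gdf6* (8.07), *Tnmd* (0), *Srpx* (1.24), *Col28a1* (0.404), *Tek* (0.792), *Ptn* (0.574), *Prelp* (0.823), *Svep1* (79.4), *Nkd1* (2.2), *Clec3b* (0.109), *H19* (1.09), *Cpxm2* (0), *Col24a1* (0.388), *Angptl1* (0.0466), *Vegfd* (3.9), *Rspo2* (0.45), *Col5a2* (570), *Hoxc8* (17.7), *Fbln5* (27.5), *Lama2* (3.09), *Col1a1* (854), and *Twist1* (0.481). It stood above them for *Slc12a1* (1.77), which encodes a cotransporter of the thick ascending limb.

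WWP2-/- replicate 3 stood below the other WWP2-/- libraries for *Rassf2* (1.81), *Prelp* (0.0805), *Rspo2* (0.242), *Cd55* (6.87), *Acta2* (38.9), and *Vim* (985), and above them for *Igfbp6* (39.9), *Chrd* (8.21), and *Col24a1* (1.47). WT replicate 3 stood above the other WT libraries for *Cilp* (6.36), and *Cd55* (55.8). WWP2-/- replicate 1 stood below the others for *Cpxm2* (0.039) and replicate 2 for *Slc12a1* (0.947).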

How the results depend on the processing

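*Wwp2* was lower and called in every alternative, with log2 fold changes from −1.43 to −1.32. The 148 genes called (21 higher, 127 lower) were 154 with DESeq2 size factors, 113 without a count filter (12 higher), and 112 with at least 10 counts in every library. With the untreated libraries alone, with the replicate block, and at an adjusted *P* below 0.01 the number was 1 each, 0 higher and 1 lower. It was 87 with *Xist* as a covariate (65 higher, 22 lower) and 743 in DESeq2's Wald test (212 higher, 531 lower). Leaving out single libraries gave 1 to 744 genes (0 to 206 higher, 1 to 538 lower). Among libraries with *Xist* 2500 genes were called (1628 higher, 872 lower), and among those without it 2 (1 higher, 1 lower). The interaction had 0 calls with *Xist* as a covariate and with the block and 10 in DESeq2. The cause of these changes was not tested.

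Same-numbered untreated libraries of the genotypes deviated together with correlations of 0.333, 0.283, 0.478, 0.037, and 0.193, and 2 of 5 numbers correlated best with their own partner, so the numbers were not taken as pairs; the block left 1 of 148 calls.

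None of the 53 called genes named besides *Wwp2* changed sign in the alternatives planned. Among libraries without *Xist*, where WT is 1 library, 35 named genes changed sign, with log2 fold changes of *Igfbp6* 0.266, *Sfrp1* 1.4, *Serpinb7* 2.95, *Apba2* 0.297, *Tnmd* 3.85, *Srpx* 0.448, *Col28a1* 0.843, *Tek* 0.243, *Ptn* 1.56, *Prelp* 1.44, *Svep1* 0.0809, *Clec3b* 0.209, *Mmp11* 0.124, *H19* 0.0809, *Cntnap3* 1.42, *Cpxm2* 4.8, *Ecm2* 0.263, *Sprr3* 1.78, *Chrd* 0.297, *Col24a1* 0.0685, *Angptl1* 1.6, *Vegfd* 1.19, *Rspo2* 2.1, *Hoxc8* 0.885, *P4ha3* 1.31, *Itgbl1* 0.0188, *Fbln5* 2.17, *Fap* 0.747, *Lama2* 1.89, *Fstl1* 0.252, *Rsad2* −0.869, *S100b* 1.68, *Col1a1* 1.62, *Twist1* 2.48, and *Ddx3x* 0.0269, which for genes with few counts depend on the prior count. Of genes not called, with *Xist* as a covariate *Acta2* gave −0.512, *Fn1* −0.286, *Vim* −0.338, and *Cdkn1a* 0.0888, and among libraries with *Xist* *Acta2* gave −0.14, *Vim* −0.364, and *Cdkn1a* 0.267. Without single libraries *Vim* was between −0.0291 and 0.329, *Ppargc1a* between −1.04 and 0.16, and *Cdkn1a* between −0.164 and 0.159.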
